A study of Mus musculus with 12 samples.

Results

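Mouse macrophages lacking Alpk1 were compared with wild-type macrophages when both had received ADP-heptose (ADP-Hep). The cells were primary bone-marrow-derived macrophages, grown over 7 days in medium conditioned by L929 cells, which supplies a macrophage growth factor. Both genotypes are labelled as strain C57BL/6N: wild-type (WT) and Alpk1-/- (KO, labelled as an Alpk1 knockout). ADP-Hep was given at 100 µM for 4 h, and the matched controls received PBS for 4 h. The comparison rests on 6 of the 12 libraries of the series, namely the 3 KO and the 3 WT libraries under ADP-Hep, chosen by their labels and not by any measured value. The 3 KO and 3 WT libraries under PBS were used only to show whether a gap between the genotypes was already there without ADP-Hep. The labels do not give the deleted part of Alpk1, the sex or age of the mice, whether KO and WT were littermates, or how many mice gave the marrow of each group. The p-values therefore measure only how far these libraries spread, and that spread may be technical.

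ADP-heptose is a sugar nucleotide that Gram-negative bacteria make on the way to lipopolysaccharide. In mammalian cells the alpha-kinase ALPK1 binds it in the cytosol and phosphorylates the adaptor TIFA, whose oligomers recruit TRAF6. TRAF6 activates the TAK1 and IKK kinases, and these free NF-kB to enter the nucleus and switch on inflammatory genes. In macrophages NF-kB programmes include cytokines, chemokines and the inhibitors that later restrain NF-kB, and the interferon that follows can add a further wave of genes through the element called ISRE.

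Promoters are shown for genes at both ends of such a pathway. The first 4 are the genes among the 12 largest decreases in KO cells whose promoter held the NF-kB motif (GGG, any 3 bases, TTCC), searched on both strands. The next pair are the interferon-stimulated genes of smallest p whose promoter held the ISRE core (GAAA, any 2 bases, GAAA), also on both strands, and the last is Alpk1 itself. Each stretch holds the 200 bases from -250 to -51 relative to the gene's start in RefSeq's GRCm38.p6 annotation, 5′ to 3′ on the gene's strand. Capitals mark the NF-kB motif in the first 4 and the ISRE core in the next pair, and overlapping matches run together.
Cxcl3 (chr5:90785851-90786050, plus strand): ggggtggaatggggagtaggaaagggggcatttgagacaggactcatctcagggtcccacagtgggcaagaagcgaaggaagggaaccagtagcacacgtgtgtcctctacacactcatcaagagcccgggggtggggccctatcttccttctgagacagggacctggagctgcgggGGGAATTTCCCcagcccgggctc
H2-M2 (chr17:37483605-37483804, minus strand): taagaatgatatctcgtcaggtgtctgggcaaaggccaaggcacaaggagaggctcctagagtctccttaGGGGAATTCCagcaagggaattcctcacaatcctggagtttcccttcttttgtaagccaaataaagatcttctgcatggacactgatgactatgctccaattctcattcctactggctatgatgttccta
Cxcl1 (chr5:90890995-90891194, plus strand): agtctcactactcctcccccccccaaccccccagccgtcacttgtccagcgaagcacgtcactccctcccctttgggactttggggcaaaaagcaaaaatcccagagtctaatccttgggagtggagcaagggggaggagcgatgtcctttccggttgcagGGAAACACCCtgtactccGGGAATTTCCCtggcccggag
Cxcl2 (chr5:90903649-90903848, plus strand): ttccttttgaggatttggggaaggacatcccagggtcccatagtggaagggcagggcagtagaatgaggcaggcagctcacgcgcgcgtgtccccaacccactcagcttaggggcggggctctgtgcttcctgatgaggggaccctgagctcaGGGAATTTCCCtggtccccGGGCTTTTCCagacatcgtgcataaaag
Ifi205 (chr1:174031806-174032005, minus strand): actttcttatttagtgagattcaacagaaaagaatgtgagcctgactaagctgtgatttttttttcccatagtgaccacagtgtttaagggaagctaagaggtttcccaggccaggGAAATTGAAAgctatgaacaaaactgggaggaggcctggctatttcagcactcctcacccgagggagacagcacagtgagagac
Ifit3b (chr19:34607707-34607906, plus strand): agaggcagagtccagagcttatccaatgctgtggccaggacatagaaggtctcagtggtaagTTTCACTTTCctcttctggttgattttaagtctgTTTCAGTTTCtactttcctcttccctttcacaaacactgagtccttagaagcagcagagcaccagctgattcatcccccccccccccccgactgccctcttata
Alpk1 (chr3:127780578-127780777, minus strand): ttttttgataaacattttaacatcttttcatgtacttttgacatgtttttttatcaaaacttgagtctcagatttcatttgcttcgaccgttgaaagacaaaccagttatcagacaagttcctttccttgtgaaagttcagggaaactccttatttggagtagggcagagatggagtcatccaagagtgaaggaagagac

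The 3 Cxcl promoters each held overlapping matches over one shared core, and Cxcl1 and Cxcl2 held 3 matches each. Of the 12 genes with the largest decreases, 11 had a promoter in the table and 4 of them (36.4%) held the NF-kB motif, against 918 of all 27025 promoters of this length (3.40%). The ISRE core was in 0 of the 11, against 2.48% of all promoters, and the AP-1 letters TGANTCA were in 2 (18.2%), against 5.74%. Of 15 matched NF-kB inhibitor and feedback genes 3 (20.0%) held the NF-kB motif, the same share as 2 of 10 p53 targets (20.0%) and near that of 3 of 17 tricarboxylic acid cycle genes (17.6%) and 2 of 12 ALPK1 pathway genes (16.7%). Other lists had lower shares, among them 1 of 21 inflammasome and cell death genes (4.76%). The motif was in 0 of 20 lysosomal genes, 0 of 20 G2 and M phase genes and 0 of 15 NRF2 and cystine import genes. The Alpk1 stretch held none of the 3 motifs. Fewer than 80% of the chemokines and interferon-stimulated genes tested had a promoter in the table, so no share is given for them. A match describes letters in this window and is not a measured binding site.

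Toward the end of the deposited table the KO columns lose their alignment with the gene identifiers, so only the first 37542 rows were used. These held 12307826 to 25742912 counts per library, and the depths of WT (12512683 to 25742912) and KO (12307826 to 22675050) under ADP-Hep spanned like ranges. Of the genes in these rows 12261 passed the filter on low counts and were tested. Levels are CPM, read counts scaled to the size of each library over the rows used after TMM scaling, and WT values are in the order of replicates 1, 2 and 3. KO values under ADP-Hep are in the order of replicate 1, replicate 3 and a library whose column number matched no label. Changes are KO minus WT on the log2 scale from edgeR's quasi-likelihood test, ± an approximate SE, and a gene was called at a Benjamini-Hochberg adjusted p under 0.05 over all genes tested. On the first principal component, which held 76.0% of the variance, the WT ADP-Hep libraries lay at 53.7 to 55.6 and the other 9 libraries, the KO ADP-Hep libraries among them, at -24.1 to -15.2. These are bulk samples, in which fewer cells of a type and less RNA per cell cannot be told apart.

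Alpk1 (ENSMUSG00000028028; chr3:127670310-127780527, minus strand, mm10) was read in every library. Under ADP-Hep the WT libraries held 53.8, 55.3 and 52.3 CPM and the KO libraries 21.6, 19.2 and 22.5 CPM, with no overlap. The KO level was 39.2% of the WT level (-1.34 ± 0.07, adjusted p = 1.5e-14). Under PBS the gap was smaller, from 30.1, 32.1 and 25.9 CPM in WT to 22.3, 20.3 and 21.3 CPM in KO libraries (-0.45 ± 0.08, adjusted p = 0.00037), and the difference between the gaps passed the test (-0.89, adjusted p = 2.1e-07). Since the labels do not say which part was deleted, these counts over the whole gene do not check the genotype by their size.

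Under ADP-Hep 7945 genes (64.8% of those tested) differed between the genotypes by edgeR's quasi-likelihood test: 3929 (32.0%) were lower in KO than in WT cells and 4016 (32.8%) were higher. Under PBS these were 714 (5.82%) and 683 (5.57%). A change of at least 2-fold was called lower for 834 genes (6.80%) and higher for 843 (6.88%) under ADP-Hep, against 38 (0.310%) and 54 (0.440%) under PBS. The large changes were mostly decreases: 136 genes were called at least 8-fold lower and 24 at least 8-fold higher in KO cells under ADP-Hep, and under PBS 0 and 3. The SD of the log2 change over all genes was 0.86 under ADP-Hep and 0.31 under PBS, and the median change was 0.01 and 0.00. The libraries of the genotypes did not overlap for 8408 genes (68.6%) under ADP-Hep, with KO below for 4127 (33.7%) and above for 4281 (34.9%), and for 3393 (27.7%) under PBS. The scaling sets how the calls divide: with library totals as the only scaling the median change of all genes under ADP-Hep moved to 0.17, with 5609 genes higher and 2722 lower, so that 67.3% of calls were higher in place of 50.5%. Small changes in either direction are therefore relative to the scaling used.

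**Figure D1:**
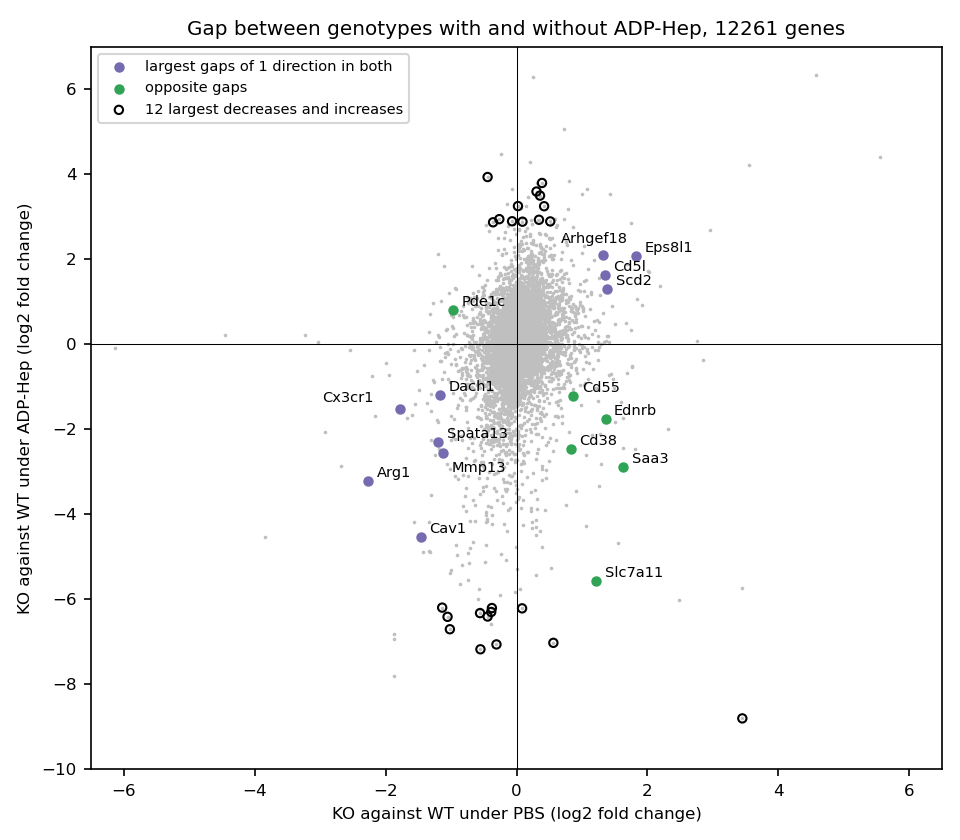
Log2 change KO minus WT under PBS (x axis) against the same under ADP-Hep (y axis) for the 12261 genes tested, 1 point per gene; open circles are the 12 largest decreases and 12 largest increases, purple points the genes with the largest gap of the same direction in both, green points those with opposite gaps. The points spread far more along the ADP-Hep axis (SD 0.86) than along the PBS axis (SD 0.31).

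Most genes with a large gap under ADP-Hep had no called gap under PBS, where 11.4% of all genes were called, 5.82% lower and 5.57% higher. Of the 834 genes at least 2-fold lower in KO cells under ADP-Hep, 639 (76.6%) were not called under PBS, 165 (19.8%) were lower there too and 30 (3.60%) were higher. Of the 843 at least 2-fold higher, 664 (78.8%) were not called, 166 (19.7%) were also higher and 13 (1.54%) were lower under PBS. The 834 lower genes took 11.3 to 11.4% of the reads used in the WT ADP-Hep libraries and 3.76 to 3.81% in the KO ADP-Hep libraries. In the PBS libraries, which did not choose these genes, they took 4.08 to 4.15% in WT and 3.71 to 3.79% in KO. The 843 higher genes took 1.07 to 1.13% in WT ADP-Hep, 3.21 to 3.24% in KO ADP-Hep, 2.95 to 2.99% in WT PBS and 3.28 to 3.47% in KO PBS libraries.

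The 12 largest decreases in KO cells, among genes with a mean of at least 5 CPM in a genotype, included the cytokine genes Il1b and Il12b, the chemokine genes Cxcl1, Cxcl2 and Cxcl3 and the enzyme gene Acod1. Acod1, which makes the antimicrobial metabolite itaconate (ENSMUSG00000022126; chr14:103046977-103056573, plus strand), held 2699, 2817 and 2786 CPM in WT and 29.1, 27.4 and 22.9 CPM in KO libraries under ADP-Hep. KO cells thus had 0.956% of the WT level (-6.71 ± 0.13, adjusted p = 4.3e-13). A smaller gap stood under PBS, with 49.2, 36.1 and 37.0 CPM in WT and 19.3, 18.1 and 23.1 CPM in KO libraries (-1.02 ± 0.14, adjusted p = 0.00057). Il1b, which encodes the pyrogenic cytokine IL-1β (chr2:129364570-129371139, minus strand), held 83.4, 87.3 and 80.7 CPM in WT against 0.420, 0.628 and 0.896 CPM in KO libraries (-7.03 ± 0.18). Clec4e, the receptor Mincle for mycobacterial glycolipids (chr6:123281789-123289870, minus strand), held 966, 970 and 960 CPM against 13.5, 12.6 and 12.9 CPM (-6.21 ± 0.08). Libraries of the genotypes without overlap were a condition of entry for these 12 genes and for the 12 largest increases, so their separation is not a further result.

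The neutrophil-attracting chemokines Cxcl1, Cxcl2 and Cxcl3, whose promoters are shown above, lie in the same region of chromosome 5. Cxcl2 held 70.1, 73.2 and 75.1 CPM in WT and 0.756, 1.10 and 0.797 CPM in KO libraries (-6.41 ± 0.12, adjusted p = 9.1e-24). Cxcl1 held 17.5, 16.5 and 17.9 CPM against 0.126, 0.393 and 0.149 CPM (-6.42 ± 0.24), and Cxcl3 11.9, 9.59 and 12.7 CPM against 0.042, 0.0786 and 0.0996 CPM (-7.18 ± 0.30). H2-M2, a class Ib histocompatibility gene and the other one with its promoter shown, held 21.9, 21.6 and 23.5 CPM against 0.210, 0.236 and 0.0498 CPM (-7.07 ± 0.22). None of these 4 had a called gap under PBS, where their log2 changes ran from -1.06 for Cxcl1 to -0.31 for H2-M2. For Il12b, which encodes the p40 chain of IL-12 and IL-23, the WT libraries together had 646 counts and the KO libraries 1, which is a 562-fold ratio (100 to 22213, 95% counting interval). The rest of the 12 were Serpinb2, an inhibitor of plasminogen activators (-6.30 ± 0.22), the adenosine receptor Adora2a (-6.22 ± 0.21), the Cdc42 effector Cdc42ep2 (-6.20 ± 0.12) and the survival factor Bcl2a1a (-6.33 ± 0.22). Bcl2a1a has near-identical copies in the mouse genome, so its reads may have been split between them. Cdc42ep2 was the only one of these 4 with a called gap under PBS (-1.14 ± 0.22, adjusted p = 0.00078).

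**Figure D2:**
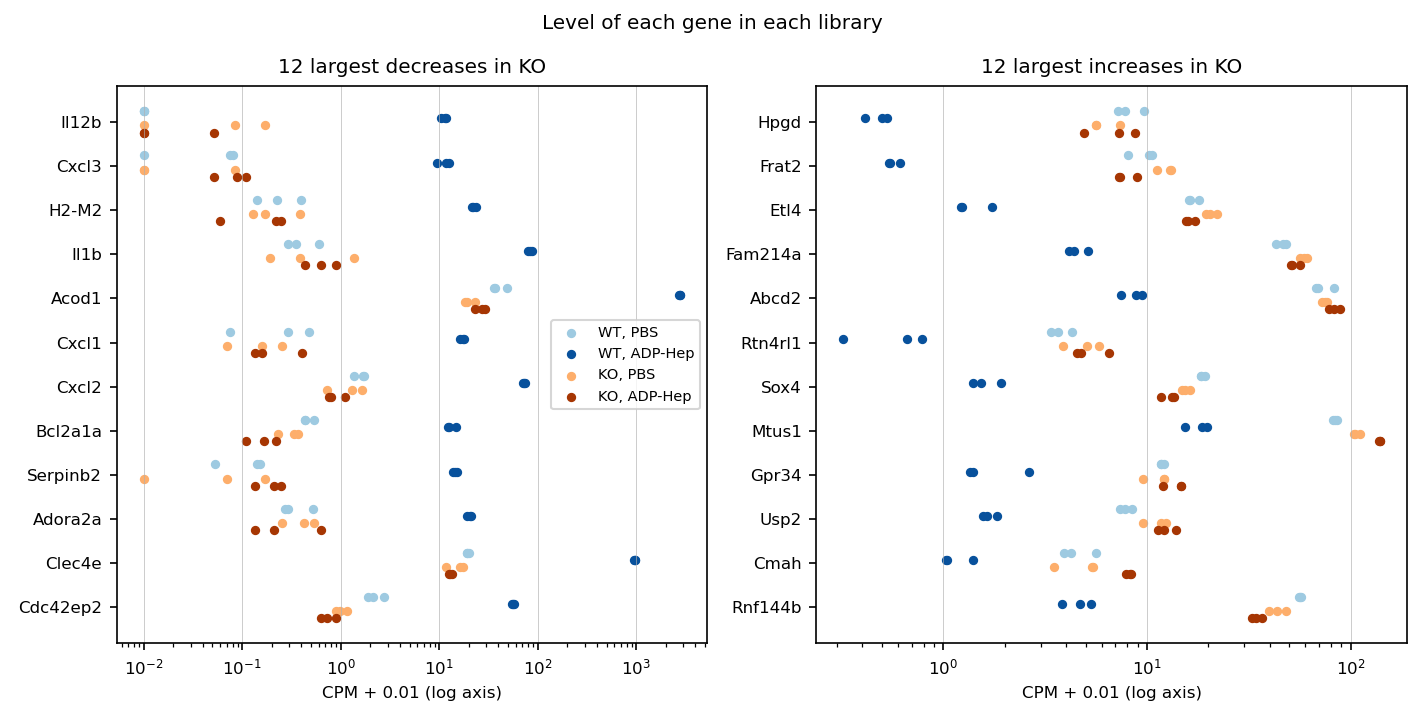
CPM + 0.01 on a log axis for the genes with the largest decreases and increases in KO cells under ADP-Hep, 1 point per library for the 4 groups. The WT ADP-Hep libraries stand apart from the KO ADP-Hep libraries by the choice of genes, and the KO ADP-Hep libraries lie near the PBS libraries. Acod1 is at 2699 to 2817 CPM in WT ADP-Hep and at 22.9 to 29.1 CPM in KO ADP-Hep libraries.

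Some genes had counts in only 1 genotype under ADP-Hep. Cxcl11, an interferon-induced chemokine for T cells, had 37, 46 and 11 counts in the WT libraries and 0 over the KO libraries, at least 27.2-fold lower in KO when the KO group is set to a floor of 3 counts in all. Il23r, a receptor subunit for IL-23, held 0.815, 0.803 and 0.777 CPM in WT and 0 counts in the KO libraries. In the other direction Capn11, Asb10 and Trav13n-4 had 0 counts in all 3 WT libraries and up to 0.786, 0.707 and 0.471 CPM in KO libraries, levels of a few reads. Capn11, a calpain protease gene, was also higher in KO cells under PBS (adjusted p = 0.00067). Cxcl9, a further interferon-induced chemokine chosen after its values were seen, had 182 counts in WT and 2 in KO libraries, a 79.1-fold ratio (21.6 to 658, 95% counting interval). Ifi208, chosen in the same way, went in the other direction, with 69 counts in KO and 3 in WT libraries. That is a 26.5-fold ratio (8.68 to 131, 95% counting interval). Floors and intervals cover counting error only.

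The ALPK1 pathway genes moved in both directions, by -1.34 to 1.32. Of 14 tested, Alpk1 included, 10 were lower and 3 were higher in KO cells under ADP-Hep, against 32.0% and 32.8% of all genes, and the median change was -0.22 (all genes 0.01). These shares of all genes are the background for the counts of each list below. With library totals as the only scaling 5 were lower and 3 higher. The adaptor gene Tifa, which lies beside Alpk1, held 137, 139 and 131 CPM in WT and 119, 107 and 118 CPM in KO libraries (-0.24 ± 0.05, adjusted p = 0.00039). Traf6, the ubiquitin ligase that TIFA recruits, held 39.1, 38.3 and 35.3 CPM against 33.1, 33.4 and 34.8 CPM (-0.16 ± 0.06, adjusted p = 0.018), and lost its call without WT replicate 1 or 2 or KO replicate 1 and with library totals. The kinase gene Map3k7, which encodes TAK1, was at -0.15 ± 0.05 and at 0.00 with library totals, and its partner Tab3 was not called (-0.11 ± 0.07, adjusted p = 0.18). The calls of Tifa, Tab2 and Ikbkb (-0.24, -0.21 and -0.25) also ended with library totals. Ikbkg, which encodes the IKK subunit NEMO, and the kinase gene Chuk were lower (-0.37 ± 0.05 and -0.41 ± 0.06). The ubiquitin-conjugating enzyme gene Ube2n was lower by a similar amount (-0.50 ± 0.06). The adaptor gene Traf2 had the largest decrease after Alpk1, from 45.9, 45.6 and 46.1 CPM in WT to 20.6, 19.7 and 17.8 CPM in KO libraries (-1.24 ± 0.07). Tifab, a TIFA relative that restrains TRAF6, was higher in KO cells, with 97.2, 101 and 89.3 CPM against 39.0, 37.3 and 38.4 CPM in WT (1.32 ± 0.07). Tab1, a TAK1 partner, and Nudt5, an ADP-sugar hydrolase, were also higher (0.56 ± 0.10 and 0.20 ± 0.06). Beside Alpk1, 0 of the 14 were called under PBS.

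All 5 NF-kB subunit genes were lower in KO cells under ADP-Hep, with a median change of -1.65, and 2 of the 5 were lower under PBS. Nfkb2, which encodes p100/p52, held 426, 446 and 482 CPM in WT and 47.7, 52.7 and 52.0 CPM in KO libraries (-3.15 ± 0.06, adjusted p = 7.6e-24). Relb, its usual partner, held 112, 117 and 118 CPM against 16.7, 18.4 and 17.6 CPM (-2.72 ± 0.06). Both also had the called gap under PBS (-0.46 ± 0.07 and -0.64 ± 0.07), and in both the gap under ADP-Hep was larger (differences of -2.70 and -2.09, adjusted p = 2.9e-18 and 3e-15). Nfkb1 (-1.65 ± 0.05) and Rela (-1.09 ± 0.06), the subunits of the classical p50/p65 dimer, were lower under ADP-Hep and not called under PBS.

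Inhibitors and feedback regulators of NF-kB were lower in KO cells for 15 of 16 tested genes, with 0 higher and a median of -2.09. Nfkbia, the inhibitor IκBα, held 458, 500 and 516 CPM in WT and 40.1, 42.3 and 46.2 CPM in KO libraries (-3.52 ± 0.06). Nfkbie held 119, 124 and 118 CPM against 3.61, 4.79 and 3.88 CPM (-4.92 ± 0.09), and the signalling adaptor Traf1 98.0, 104 and 106 CPM against 1.39, 2.36 and 1.89 CPM (-5.83 ± 0.10). Tnip3, an A20-binding inhibitor, was lower by 3.91 ± 0.06 on the log2 scale. The exception was the deubiquitinase gene Otulin (-0.09 ± 0.06, adjusted p = 0.204). Under PBS 6 of the 16 were lower and 1 was higher in KO cells, with a median of -0.13. Here and below, members named as exceptions to their list were chosen after their values were seen.

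Genes that destroy or protect cytokine mRNAs divided, with 5 lower and 3 higher of 8, against 32.0% and 32.8% of all genes. Without WT replicate 3 the higher ones were 1 in place of 3. Zc3h12c, a relative of the endonuclease regnase-1, held 201, 205 and 200 CPM in WT and 31.4, 27.7 and 31.5 CPM in KO libraries (-2.73 ± 0.08). The decay factor Zfp36 (tristetraprolin) was lower (-1.15 ± 0.06), while its paralogue Zfp36l2 was higher, with 247, 240 and 245 CPM in KO against 111, 113 and 110 CPM in WT (1.13 ± 0.04). Regnase-1 itself, Zc3h12a, was lower by 0.76 ± 0.05.

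**Figure D3:**
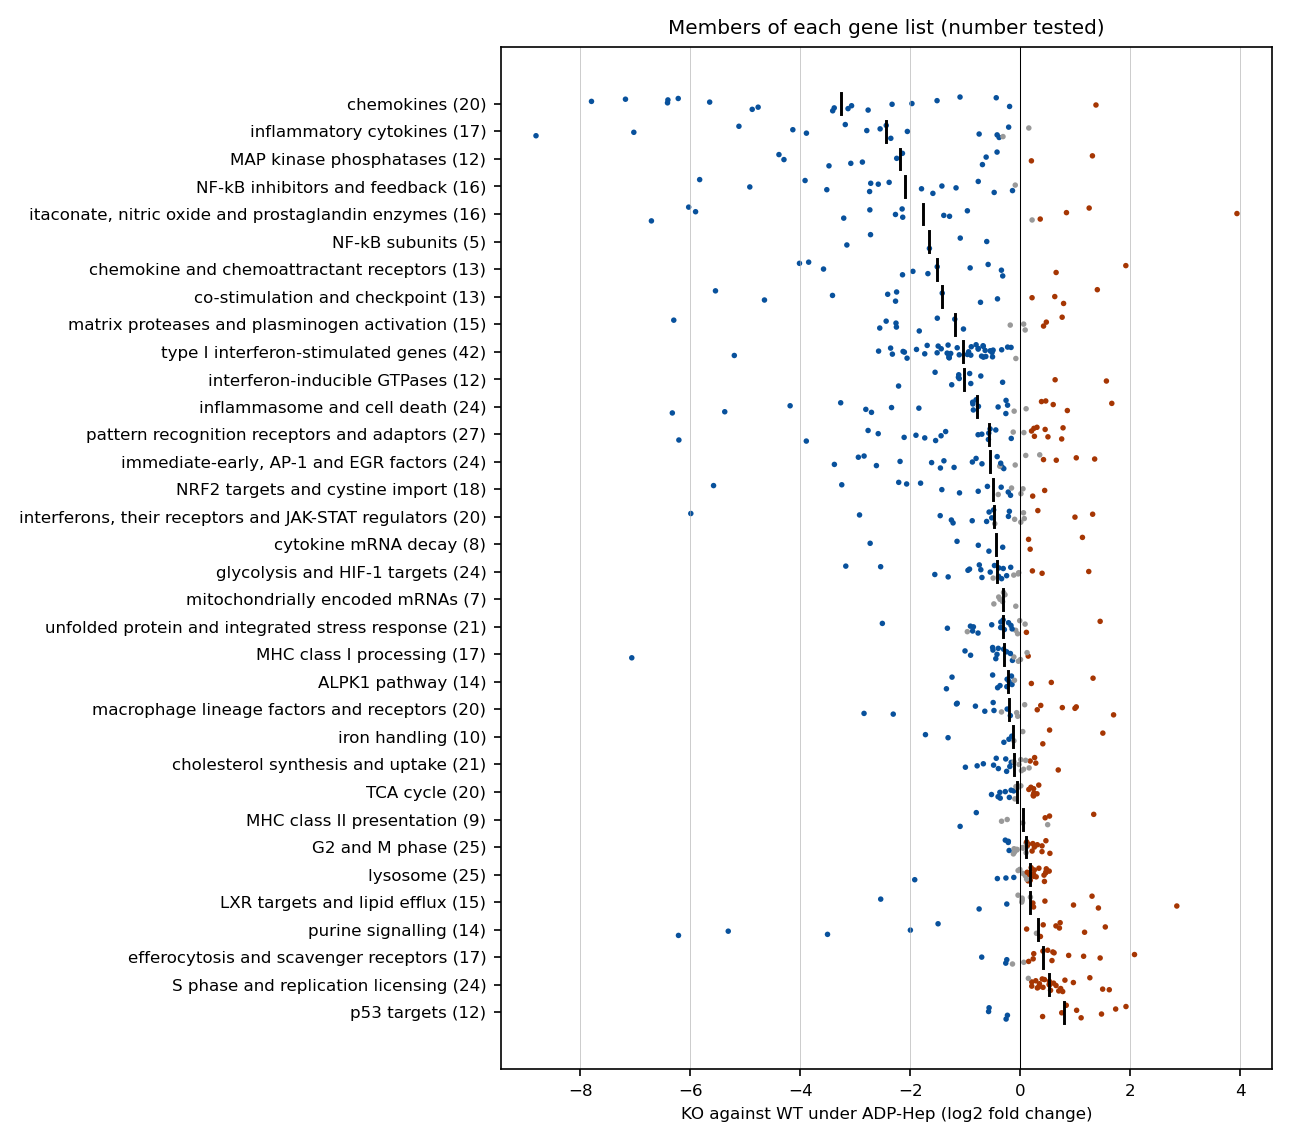
Log2 change KO minus WT under ADP-Hep for every tested member of each gene list, 1 point per gene, with blue for called lower, red for called higher, grey for not called and a black bar for the list's median. Chemokines (median -3.26) and cytokines (median -2.44) lie farthest below 0, and S phase genes (median 0.53) lie above it.

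Inflammatory cytokine genes were lower in KO cells for 15 of 17 tested, with 0 higher and a median of -2.44, and with library totals 14 were lower and 1 higher. Tnf, the cytokine TNF, held 139, 144 and 159 CPM in WT and 4.20, 4.71 and 3.93 CPM in KO libraries (-5.12 ± 0.09, adjusted p = 2.1e-23). Il1rn, the antagonist of the IL-1 receptor, held 143, 140 and 148 CPM against 34.1, 38.3 and 32.1 CPM (-2.05 ± 0.06). KO cells kept 24.2% of the WT level of this antagonist and 0.774% of that of Il1b. Those not called were Il10 (-0.32 ± 0.17, adjusted p = 0.11) and Osm (0.15 ± 0.13, adjusted p = 0.32). The other 6 of the 23 listed had too few reads to test, among them Il12a, with 9, 4 and 3 counts in the WT libraries and 0, 1 and 1 in the KO libraries. Under PBS 1 of the 17 was lower in KO cells and 0 higher.

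Among chemokine genes 19 of 20 tested were lower and 1 was higher, with a median of -3.26. Ccl9, a CCR1 ligand, held 1343, 1383 and 1284 CPM in WT and 275, 253 and 268 CPM in KO libraries (-2.33 ± 0.05). Ccl3 (MIP-1α) held 98.7, 100 and 103 CPM against 12, 10.8 and 11.3 CPM (-3.13 ± 0.07), and Cxcl16 was lower by 1.51 ± 0.04. The exception was Ccl8, a monocyte attractant (1.38, adjusted p = 0.0034), which was also higher in KO cells under PBS (2.19, adjusted p = 0.003). Under PBS 5 of the 20 were lower, with a median of -0.39.

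Receptors for chemoattractants were lower for 11 of 13 tested and higher for 2. The formyl peptide receptor Fpr1, a sensor of bacterial peptides, held 666, 691 and 745 CPM in WT and 41.9, 41.2 and 46.5 CPM in KO libraries (-4.02 ± 0.06, adjusted p = 3.4e-25). Its neighbour Fpr2 held 104, 98.4 and 111 CPM against 7.06, 7.86 and 6.97 CPM (-3.85 ± 0.07), the chemerin-binding Ccrl2 was lower by 3.58 ± 0.09 and the complement receptor C5ar1 by 2.14 ± 0.05. The higher ones were Cxcr4 (1.92, adjusted p = 3.3e-10) and Ccr2 (0.65, adjusted p = 1.1e-07), the receptor that draws monocytes to inflamed tissue. Ccr2 was lower in KO cells under PBS (-0.61, adjusted p = 1.8e-05). Under PBS 7 of the 13 were lower, C5ar1 (-0.53 ± 0.05) and Fpr1 (-0.37 ± 0.07) among them.

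Enzymes and related genes of itaconate, nitric oxide, oxidants and prostaglandins were lower for 11 of 16 tested and higher for 4, with a median of -1.77. Cybb, the catalytic subunit of the phagocyte oxidase, held 2749, 2772 and 2873 CPM in WT and 1058, 1084 and 1057 CPM in KO libraries (-1.39 ± 0.04, adjusted p = 6.6e-20). Gch1, which makes the cofactor of nitric oxide synthase, was lower by 2.27 ± 0.08, the prostaglandin E synthase Ptges by 2.74 ± 0.11 and the prostacyclin receptor Ptgir by 2.15 ± 0.08. The opposite case was Hpgd, which breaks down prostaglandins and had the largest increase in KO cells among genes with a mean of at least 5 CPM in a genotype. It held 7.31, 4.87 and 8.76 CPM in KO against 0.489, 0.401 and 0.518 CPM in WT libraries (3.94 ± 0.27, adjusted p = 1.2e-11), and 5.59 to 9.68 CPM in the 6 PBS libraries. The other genes of this list higher in KO cells were Ptgs1 (1.25), Hpgds (0.84) and Alox5ap (0.36).

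Inflammasome and cell death genes were lower for 17 of 24 tested and higher for 5, with a median of -0.78. The inflammasome sensor Nlrp3 held 436, 428 and 464 CPM in WT and 44.2, 47.7 and 46.5 CPM in KO libraries (-3.27 ± 0.05). Mefv, which encodes the sensor pyrin, was lower by 4.19 ± 0.11, Casp4, the caspase that binds cytosolic lipopolysaccharide, by 2.81 ± 0.07, and the death inhibitor Cflar by 1.84 ± 0.05. The genes higher in KO cells were Nlrp1b (1.66), the pro-death Bcl2l11 (0.85), Naip5 (0.60), Ripk1 (0.46) and the adaptor Pycard (0.38).

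Of 27 pattern recognition receptor and adaptor genes, 17 were lower and 8 were higher, with a median of -0.57. Tlr2, the receptor for bacterial lipoproteins, held 677, 690 and 729 CPM in WT and 101, 104 and 102 CPM in KO libraries (-2.77 ± 0.05). Marco, a scavenger receptor for bacteria, held 2535, 2611 and 2743 CPM against 959, 950 and 996 CPM (-1.44 ± 0.04), and the signalling brake Irak3 was lower by 2.11 ± 0.05. Cd14, the lipopolysaccharide co-receptor, chosen after its values were seen, held 1521, 1585 and 1706 CPM in WT against 105, 108 and 111 CPM in KO libraries (-3.89, adjusted p = 3e-17). Under PBS 6 of the 27 were lower and 0 higher, Tlr2 among them (-0.51 ± 0.05).

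Co-stimulatory and checkpoint genes were lower for 9 of 13 tested and higher for 4. The adhesion molecule Icam1 held 437, 450 and 480 CPM in WT and 43.8, 42.7 and 41.5 CPM in KO libraries (-3.42 ± 0.06), and the co-stimulatory receptor Cd40 59.0, 65.0 and 59.0 CPM against 2.56, 2.83 and 1.99 CPM (-4.65 ± 0.11). The PD-1 ligand Cd274 was lower by 2.27 ± 0.06 and Icosl by 2.41 ± 0.07. The 4 higher genes were the inhibitory receptors or ligands Vsir (1.4), Cd200r1 (0.79) and Havcr2 (0.63) and the CD28 ligand Cd86 (0.21).

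Type I interferon-stimulated genes were lower in KO cells for 41 of 42 tested, with 0 higher and a median of -1.04, and for 38 of 42 with library totals as the only scaling. Their summed level ran from 6283 to 7534 CPM in WT and from 2910 to 3376 CPM in KO ADP-Hep libraries, above the 1849 to 2046 CPM of the KO PBS libraries. Under PBS 4 were lower and 1 was higher, with a median of -0.17. The gap under ADP-Hep was lower than that under PBS for 38 of 42 by the test of the difference, against 24.6% of all genes. Ifi205, a sensor-family gene with an ISRE core in the promoter shown above, held 31.5, 37.1 and 28.7 CPM in WT and 1.05, 0.707 and 0.797 CPM in KO libraries (-5.20 ± 0.15). Ifit3b, the other one shown, held 26.4, 32.4 and 28.8 CPM against 13.5, 12.7 and 8.71 CPM (-1.33 ± 0.11), while the 6 PBS libraries held 1.86 to 2.28 CPM. Ifit3b thus stayed above the PBS level in KO cells, at lower values than in WT cells. Both genes have close relatives in the genome, and reads may have been split among these. Tor3a was lower by 1.49 ± 0.07, the histone chaperone Daxx by 1.29 ± 0.07 and the RNA sensor Ifih1 (MDA5) by 0.96 ± 0.06. The exception was the virus-tethering gene Bst2 (-0.08 ± 0.05, adjusted p = 0.15).

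Interferon-inducible GTPases, which attack vacuoles that hold pathogens, were lower for 10 of 12 tested and higher for 2, with a median of -1.02 and 0 called under PBS. Gbp2 held 112, 132 and 111 CPM in WT and 27.8, 24.8 and 23.7 CPM in KO libraries (-2.21 ± 0.07). Irgm2 held 130, 153 and 133 CPM against 77.5, 77.8 and 65.1 CPM (-0.92 ± 0.07). Igtp (-1.13 ± 0.06) overlaps Irgm2 on the same strand of chromosome 11, so their reads may be shared, and Gbp3 (-1.25 ± 0.08) belongs to a cluster of close relatives. The higher ones were Gbp8 (1.57, adjusted p = 0.00022) and Gbp9 (0.63, adjusted p = 7.8e-07). The KO ADP-Hep libraries of Gbp2, Gbp3, Igtp and Irgm2 all lay above the KO PBS libraries, whose highest values were 14.6, 10.3, 13.3 and 37.3 CPM.

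Interferon receptors and JAK-STAT regulators were lower for 12 of 20 tested and higher for 3, with a median of -0.48, and with library totals 10 were lower and 6 higher. Socs3, an inhibitor of cytokine receptor signalling, held 120, 133 and 144 CPM in WT and 1.97, 2.44 and 1.94 CPM in KO libraries (-5.99 ± 0.12). The kinase gene Jak2 was lower by 1.46 ± 0.05. The receptor chains Ifnar1 and Ifngr2 were lower by 1.22 ± 0.05 and 0.88 ± 0.04, and both were also lower under PBS (-0.33 ± 0.05 and -0.18 ± 0.04). Irf8, a factor of the monocyte and dendritic cell lineages, was higher in KO cells, with 174, 186 and 175 CPM against 85.5, 87.7 and 96.1 CPM (0.99 ± 0.05). Ifnb1, which encodes interferon-β, had 3, 5 and 6 counts in the WT libraries and 0 in the KO libraries and was too low to test.

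Immediate-early, AP-1 and EGR factors were lower for 16 of 24 tested and higher for 4, with a median of -0.56. Fos held 139, 143 and 145 CPM in WT and 14, 12.1 and 14.3 CPM in KO libraries (-3.38 ± 0.07), with a smaller gap under PBS (-0.78 ± 0.09). Junb was lower by 2.19 ± 0.05 and Myc by 2.84 ± 0.11. The genes higher in KO cells included the Krüppel-like factors Klf4 (1.35), Klf10 (0.65) and Klf2 (0.42).

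Phosphatases and inhibitors that end MAP kinase signals were lower for 10 of 12 tested and higher for 2, with a median of -2.20. Spred1 held 411, 432 and 397 CPM in WT and 90.9, 89.0 and 101 CPM in KO libraries (-2.14 ± 0.05), and Dusp16, which acts on JNK, 52.6, 56.4 and 56.0 CPM against 6.13, 6.05 and 7.17 CPM (-3.08 ± 0.10). Dusp2 was lower by 2.87 ± 0.20. Dusp7 went the other way, with 83.4, 84.1 and 85.4 CPM in KO against 33.5, 33.7 and 35.1 CPM in WT libraries (1.31 ± 0.06), and Dusp3 was higher by a small amount (0.20).

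Of 17 class I processing genes 12 were lower and 1 was higher, with a median of -0.30 and the lowest value, -7.07, in H2-M2, described above. With library totals 9 were lower and 4 higher, and without WT replicate 1 there were 0 higher. The proteasome activator Psme2 was lower by 1.01 ± 0.04. The class I heavy chain H2-K1 held 796, 842 and 882 CPM in WT and 606, 648 and 594 CPM in KO libraries (-0.45 ± 0.05), and was higher in KO cells under PBS (0.31 ± 0.05). Tapbp, the peptide-loading factor tapasin, had the same pair of opposite gaps (-0.40 ± 0.04 and 0.14 ± 0.04). Of 9 class II genes 3 were higher and 2 lower, near or below the 32.8% and 32.0% of all genes, and without WT replicate 1 only 1 was lower. The invariant chain Cd74 was lower by 1.10 ± 0.12, and the peptide exchangers H2-DMa and H2-DMb1 were higher by 0.45 ± 0.12 and 0.53 ± 0.08.

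For each of the 12 largest increases in KO cells, all WT ADP-Hep libraries lay below all 6 PBS libraries. These genes were chosen for WT ADP-Hep values below those of KO ADP-Hep, so the choice itself favours this order. Etl4, a cytoskeletal gene, held 15.5, 17.1 and 15.8 CPM in KO against 1.22, 1.2 and 1.73 CPM in WT ADP-Hep libraries (3.60 ± 0.13), and 16 to 22.2 CPM in the PBS libraries. Abcd2, a peroxisomal transporter of very-long-chain fatty acids, held 83.3, 78.4 and 88.4 CPM against 9.41, 8.83 and 7.43 CPM (3.25 ± 0.09). Mtus1 held 140, 138 and 140 CPM against 19.7, 18.6 and 15.3 CPM (2.93 ± 0.06), and Fam214a 50.7, 56.3 and 51.3 CPM against 5.14, 4.37 and 4.15 CPM (3.50 ± 0.08). The ubiquitin ligase gene Rnf144b held 34.3, 32.6 and 36.8 CPM against 4.69, 5.31 and 3.80 CPM (2.87 ± 0.10). The others, beside Hpgd, were Frat2, a GSK3-binding protein of the Wnt pathway (3.80), Rtn4rl1 (3.25), the transcription factor Sox4 (2.95), the lysophosphatidylserine receptor Gpr34 (2.90), the deubiquitinase Usp2 (2.89) and Cmah, which hydroxylates sialic acid (2.89). Called gaps of the same direction were present under PBS for Frat2, Etl4, Fam214a, Mtus1 and Usp2 at 0.30 to 0.51, and of the opposite direction for Sox4 (-0.26 ± 0.09) and Rnf144b (-0.36 ± 0.07).

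By difference of level rather than fold, the 6 largest decreases included Acod1 and abundant structural genes. Actb, the cytoskeletal actin, held 16146, 16289 and 16571 CPM in WT and 12098, 13043 and 12380 CPM in KO libraries (-0.39 ± 0.05), and Fth1, the ferritin heavy chain, 16665, 17061 and 17884 CPM against 13808, 14110 and 14025 CPM (-0.30 ± 0.04). Cybb, the TNF receptor Tnfrsf1b (-1.96 ± 0.07) and Plek, which encodes pleckstrin (-3.01 ± 0.05), complete the 6. The 6 largest increases of level in KO cells included lysosomal and lipid genes. Psap, which encodes the precursor of the saposins, held 14468, 15824 and 14659 CPM in KO against 10192, 10555 and 11662 CPM in WT libraries (0.47 ± 0.05). Selenop, a secreted selenium carrier, held 2346, 2226 and 2371 CPM against 828, 822 and 765 CPM (1.52 ± 0.05), and Apoe, the lipid carrier, 1065, 1035 and 1087 CPM against 520, 558 and 553 CPM (0.97 ± 0.04). Ctsb (0.18 ± 0.04), Itm2b (0.57 ± 0.04) and the scavenger receptor Stab1 (0.41 ± 0.07) were the rest. Psap, Selenop, Apoe, Itm2b and Stab1 were already higher in KO cells under PBS (0.17 to 0.37), and for Psap, Stab1 and Ctsb the difference between the gaps did not pass the test (adjusted p = 0.12, 0.22 and 0.49).

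Genes of S phase and replication licensing were higher in KO cells for 23 of 24 tested under ADP-Hep, with 0 lower and a median of 0.53, and for 24 of 24 with library totals as the only scaling. Under PBS 2 were higher, with a median of 0.07. Cdt1, which loads the replicative helicase, held 27.4, 29.3 and 31 CPM in KO against 10.4, 10.03 and 10.7 CPM in WT libraries (1.5 ± 0.07), and 37.3 to 46.6 CPM in the PBS libraries. The helicase subunits Mcm7 and Mcm6 were higher by 0.96 ± 0.06 and 0.60 ± 0.05, and Rrm2, which makes deoxynucleotides, held 72.0, 73.4 and 75.8 CPM against 41.9, 40.7 and 44.1 CPM (0.81 ± 0.05). The exception was Tyms (0.15 ± 0.08, adjusted p = 0.096). G2 and M phase genes moved less: 11 of 25 were higher and 4 lower, with a median of 0.10, and with library totals 16 were higher and 0 lower. The mitotic kinase Aurkb (0.54 ± 0.06) and the checkpoint genes Bub1b (0.39 ± 0.05) and Ttk (0.46 ± 0.07) were higher, as was the spindle motor Kif11 (0.39 ± 0.05). The 4 lower ones, Ccnb1, Prc1, Tpx2 and Ube2c, changed by -0.27 to -0.20, and under PBS 8 of the 25 were lower in KO cells.

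p53 target genes were higher for 8 of 12 tested and lower for 4, with a median of 0.79, while under PBS 7 were higher and 0 lower with a median of 0.28. With library totals 8 were higher and 2 lower under ADP-Hep. The stress regulator Sesn1 held 522, 490 and 514 CPM in KO against 160, 152 and 146 CPM in WT libraries (1.73 ± 0.05). Trp53inp1, an autophagy and death factor, held 233, 219 and 229 CPM against 65.7, 59.0 and 54.1 CPM (1.92 ± 0.06), and the pro-death Bbc3 (PUMA) was higher by 1.11 ± 0.09 and Zmat3 by 0.84 ± 0.05. Trp53 itself was lower (-0.57), as were Mdm2 (-0.58), Bax (-0.26) and the cell cycle inhibitor Cdkn1a (-0.23). Cdkn1a and Mdm2 had the opposite gap under PBS (0.31 each).

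Receptors for dead cells and scavenger receptors were higher in KO cells for 12 of 17 tested and lower for 3, with a median of 0.41. Mertk, which binds apoptotic cells through Gas6, held 168, 173 and 162 CPM in KO against 41.6, 41.7 and 34.5 CPM in WT libraries (2.08 ± 0.06). Gas6 held 388, 407 and 393 CPM against 135, 149 and 151 CPM (1.45 ± 0.05), so the receptor and its ligand were both higher. Itgb5 was higher by 0.88 ± 0.04 and the mannose receptor Mrc1 by 0.61 ± 0.04. Lower were Itgav (-0.70), the complement gene C1qa (-0.27) and Cd36 (-0.25). Under PBS 7 of the 17 were higher and 1 lower, with Gas6 at 0.40 ± 0.05 and Mrc1 at 0.34 ± 0.04.

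Lysosomal genes were higher for 16 of 25 tested and lower for 4, with a median of 0.18, and with library totals 20 were higher and 2 lower. Hexa (0.43 ± 0.04) and Lgmn (0.46 ± 0.04), a hexosaminidase and a protease, stand for these. Ctsc, the peptidase that activates granule proteases, went the other way, with 1649, 1651 and 1519 CPM in WT against 427, 415 and 430 CPM in KO libraries (-1.92 ± 0.05), and Ctsl was lower by 0.42 ± 0.04. Liver X receptor targets were higher for 7 of 15 and lower for 3, against 32.8% and 32.0% of all genes, and under PBS for 8 and 1. With library totals 11 were higher and 2 lower under ADP-Hep, and the median moved from 0.18 to 0.34. The cholesterol exporter Abcg1 held 48.0, 46.6 and 48.5 CPM in KO against 19.9, 17.7 and 14.8 CPM in WT libraries (1.42 ± 0.08). The receptor gene Nr1h3 (LXRα) was lower, with 7.77, 8.01 and 8.36 CPM against 45.7, 48.2 and 46.3 CPM in WT (-2.54 ± 0.08). The exporter Abca1 was lower too (-0.75), and Cd36 (-0.25) was the last of the 3.

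Cholesterol synthesis and uptake genes were mostly higher in KO cells under PBS and were called in both directions under ADP-Hep. Under PBS 18 of 21 tested were higher in KO cells and 0 lower, with a median of 0.39, against 5.57% and 5.82% of all genes. Under ADP-Hep 4 were higher and 10 lower, with a median of -0.12, and 9 of the 21 were called higher under PBS and lower under ADP-Hep. With library totals the counts under ADP-Hep became 10 higher and 7 lower, with a median of 0.04, so the direction of the list under ADP-Hep depends on the scaling. The difference between the gaps passed the test for 17 genes as lower and 1 as higher, against 24.6% and 24.9% of all genes. Hsd17b7, an enzyme of the pathway, held 72.3, 66.5 and 66.8 CPM in WT and 39.6, 39.6 and 40.3 CPM in KO libraries under ADP-Hep (-0.79 ± 0.06). Under PBS it held 23.2, 26.3 and 24.8 CPM in WT and 36.3, 35.0 and 36.8 CPM in KO libraries (0.54 ± 0.06), so the groups did not overlap under either treatment and their order was opposite. Dhcr7, the last enzyme of the pathway, was higher in KO cells under both (0.69 ± 0.07 and 0.40 ± 0.07).

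**Figure D4:**
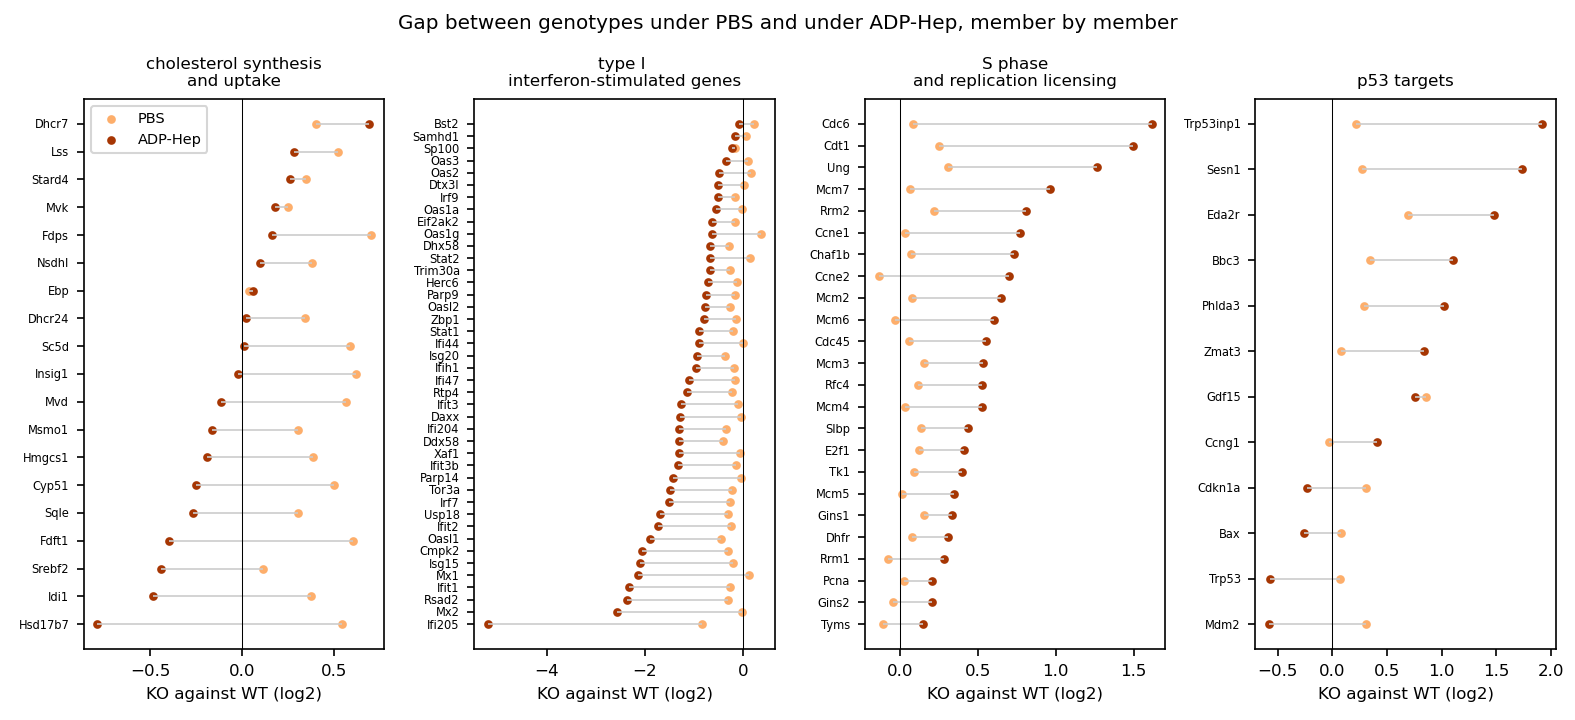
Log2 change KO minus WT for tested members of 4 gene lists, under PBS (light) and under ADP-Hep (dark). Not every cholesterol gene is drawn, and the medians given are over all tested members. Cholesterol genes lie above 0 under PBS (median 0.39) and on both sides of it under ADP-Hep (median -0.12, and 0.04 with library totals as the only scaling), interferon-stimulated genes fall from -0.17 to -1.04 in median, and S phase genes rise from 0.07 to 0.53.

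Of the NRF2 targets and cystine import genes 10 of 18 were higher and 1 lower in KO cells under PBS (median 0.32), and 2 were higher and 12 lower under ADP-Hep (median -0.50). With library totals 4 were higher and 10 lower under ADP-Hep. Of the 18, 6 were called in opposite ways. Slc7a11, the cystine transporter, held 560, 585 and 607 CPM in WT and 11.4, 13.5 and 12.2 CPM in KO libraries under ADP-Hep (-5.58 ± 0.20, adjusted p = 7.6e-09). Under PBS it held 7.62, 6.91 and 8.92 CPM in WT and 24.2, 11.3 and 21.5 CPM in KO libraries (1.22 ± 0.27, adjusted p = 0.022). Sod2, the mitochondrial superoxide dismutase, held 995, 1029 and 1086 CPM against 109, 110 and 108 CPM under ADP-Hep (-3.25 ± 0.05). Sqstm1, the autophagy receptor p62, held 1663, 1718 and 1965 CPM against 422, 423 and 429 CPM (-2.07 ± 0.07), the factor gene Nfe2l2 was lower by 1.43 ± 0.05 and Slc3a2 by 0.60 ± 0.05. Catalase, Cat (0.22), and Mgst1 (0.44) were the higher ones.

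Iron genes moved both ways, with 5 of 10 lower and 3 higher, against 32.0% and 32.8% of all genes. The iron exporter Slc40a1 (ferroportin) held 183, 188 and 181 CPM in KO against 64.1, 59.3 and 73.4 CPM in WT libraries (1.5 ± 0.07), and the transferrin receptor Tfrc was higher by 0.53 ± 0.05. The importer Slc11a2 held 54.9, 59.1 and 54.1 CPM against 180, 182 and 193 CPM in WT (-1.73 ± 0.06), and the siderophore-binding Lcn2 was lower by 1.31 ± 0.10. The mRNA of the exporter was thus higher and that of the importer lower in KO cells. With library totals 3 were lower and 4 higher, and the list's median changed sign from -0.14 to 0.02.

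Glycolysis and HIF-1 target genes were lower for 17 of 24 tested and higher for 3, with a median of -0.43. Hif1a held 368, 366 and 344 CPM in WT and 121, 118 and 128 CPM in KO libraries (-1.56 ± 0.05), and the transporter Slc2a6 100, 111 and 116 CPM against 12.6, 10.7 and 12.3 CPM (-3.17 ± 0.07). The enzymes Pfkp and Pfkfb3 were lower by 0.92 ± 0.06 and 0.95 ± 0.07. The higher genes were Ndrg1 (1.24), Hk2 (0.40) and Pdk1 (0.22). Of 20 tricarboxylic acid cycle genes 8 were lower and 8 higher, against 32.0% and 32.8% of all genes, with a range of -0.52 to 0.33. With library totals 5 were lower and 9 higher, and the median changed sign from -0.07 to 0.09. The lower ones included Idh3a (-0.52 ± 0.06), Dlst (-0.40 ± 0.04), Mdh2 (-0.37 ± 0.04) and citrate synthase, Cs (-0.37 ± 0.04).

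Unfolded protein and integrated stress response genes were lower for 14 of 21 tested and higher for 2, with a median of -0.31, and 10 of the 21 were lower under PBS as well. The higher ones were 1 in place of 2 with DESeq2 size factors or its Wald test, and without WT replicate 1, WT replicate 3, KO replicate 1 or the KO library with no number. The chaperone Hspa5 (BiP) held 2257, 2338 and 2285 CPM in WT and 1255, 1243 and 1310 CPM in KO libraries (-0.85 ± 0.05), after -0.41 ± 0.05 under PBS. Herpud1 (-1.33 ± 0.06) and Manf (-0.91 ± 0.05) changed likewise. Sesn2 was higher, at 70.4, 68.1 and 66.9 CPM against 24.2, 25 and 26.4 CPM (1.45 ± 0.08).

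Among macrophage lineage factors and receptors 10 of 20 were lower and 6 higher. The C/EBP factors Cebpd and Cebpb were lower by 2.84 ± 0.07 and 2.31 ± 0.07. Spi1, which encodes the lineage factor PU.1, held 516, 544 and 583 CPM in WT and 238, 250 and 247 CPM in KO libraries (-1.16 ± 0.05), and was not called under PBS (-0.03 ± 0.05). Matrix proteases and plasminogen regulators were lower for 9 of 15 and higher for 3, and with library totals for 9 and 5. The membrane protease Mmp14 held 736, 763 and 800 CPM against 155, 167 and 161 CPM (-2.25 ± 0.05), and Mmp9 was lower by 2.26 ± 0.09 although higher under PBS (0.60 ± 0.12). Purine signalling genes were higher for 8 of 14 and lower for 5. Beside Adora2a, the adenosine receptor Adora2b (-3.51 ± 0.21) and Gpr84, a receptor of medium-chain fatty acids (-5.31 ± 0.12), were lower, and the ATP-degrading Entpd1 (CD39) was higher, with 123 CPM in each KO library against 57.3, 56.7 and 49.1 CPM in WT (1.17 ± 0.06).

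Some genes had a gap of the same direction under both treatments. The comparisons under ADP-Hep and under PBS share no library. Of the 714 genes lower in KO cells under PBS, 503 (70.4%) were lower, 90 (12.6%) higher and 121 (16.9%) not called under ADP-Hep. Of the 683 higher under PBS, 440 (64.4%) were higher, 132 (19.3%) lower and 111 (16.3%) not called. Over all genes 32.0% were lower and 32.8% higher under ADP-Hep. The 503 were 12.8% of all genes lower under ADP-Hep and the 440 were 10.96% of all genes higher, against 5.82% and 5.57% of all genes called so under PBS.

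The genes with the largest gap of the same direction under both treatments included Scd2, a fatty acid desaturase. It held 88.2, 89.9 and 87.4 CPM in WT and 223, 215 and 217 CPM in KO libraries under ADP-Hep (1.30 ± 0.05), and 81.3, 85.2 and 78.7 CPM against 200, 217 and 221 CPM under PBS (1.38 ± 0.05). The difference between these gaps did not pass the test (-0.08, adjusted p = 0.34). Cx3cr1, the fractalkine receptor of resident macrophages, held 118, 118 and 125 CPM in WT and 41.0, 41.7 and 43.9 CPM in KO libraries under ADP-Hep (-1.51 ± 0.05), and 71.3, 74.3 and 73.0 CPM against 20.1, 22.3 and 20.7 CPM under PBS (-1.79 ± 0.06). Arg1, the arginase of alternatively activated macrophages, held 14.7, 14.9 and 13.5 CPM against 1.30, 1.34 and 1.99 CPM under ADP-Hep (-3.21 ± 0.17), with -2.26 ± 0.20 under PBS. Cd5l, a secreted macrophage survival protein, was higher in KO cells by 1.64 ± 0.06 under ADP-Hep and 1.35 ± 0.06 under PBS. Eps8l1 was higher by 2.07 ± 0.17 and 1.83 ± 0.17 (difference 0.24, adjusted p = 0.43), and Dach1 lower by 1.2 ± 0.14 and 1.17 ± 0.12 (difference -0.03, adjusted p = 0.9). The caveolar gene Cav1 (-4.54 ± 0.09 and -1.46 ± 0.14), the collagenase Mmp13 (-2.56 ± 0.10 and -1.12 ± 0.14) and the exchange factor genes Spata13 (-2.31 ± 0.09 and -1.2 ± 0.10) and Arhgef18 (2.09 ± 0.13 and 1.32 ± 0.12) had a larger gap under ADP-Hep, and for each of these 4 the difference passed the test (adjusted p from 1.9e-12 to 0.0011).

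The genes with the largest opposite gaps were mostly higher in KO cells under PBS and lower under ADP-Hep. Saa3, an acute phase protein, held 407, 422 and 470 CPM in WT and 58.9, 56.6 and 60.4 CPM in KO libraries under ADP-Hep (-2.88 ± 0.06), and 16.3, 18.2 and 16.4 CPM against 50.6, 48.4 and 58.2 CPM under PBS (1.63 ± 0.08). The KO level was thus nearly the same with and without ADP-Hep, at 48.4 to 60.4 CPM over the 6 KO libraries. The NAD glycohydrolase Cd38 (-2.47 ± 0.07 and 0.83 ± 0.11), the endothelin receptor Ednrb (-1.77 ± 0.08 and 1.36 ± 0.09), the complement regulator Cd55 (-1.22 ± 0.09 and 0.87 ± 0.12) and Slc7a11 behaved in the same way. Pde1c, a phosphodiesterase, was the reverse, with 8.44, 8.56 and 8.51 CPM in KO against 4.40, 5.17 and 5.10 CPM in WT under ADP-Hep (0.81 ± 0.11) and -0.97 ± 0.10 under PBS.

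**Figure D5:**
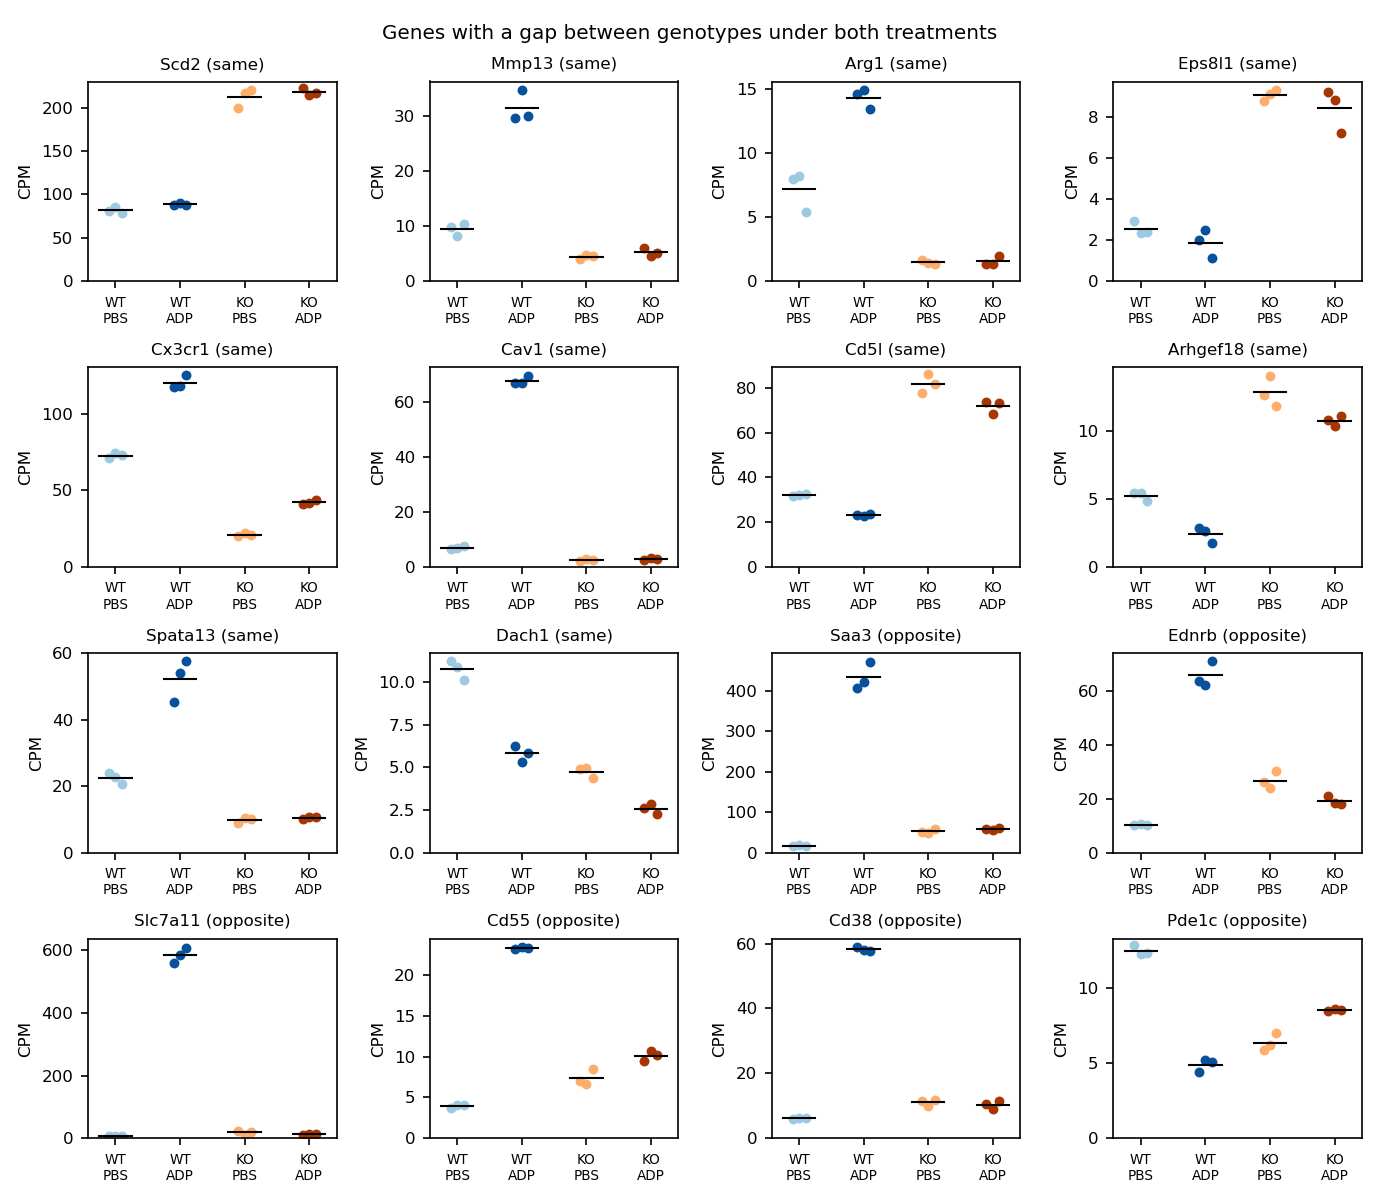
CPM by library for the 10 genes with the largest gap of the same direction under both treatments and the 6 with the largest opposite gaps; each point is a library and each bar a group mean. Scd2 sits at 200 to 223 CPM in all 6 KO libraries and at 78.7 to 89.9 CPM in all 6 WT libraries, while Saa3 is higher in KO cells under PBS and lower under ADP-Hep.

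Genes near Alpk1 on chromosome 3 were read separately, since a targeted allele can bring flanking sequence of another strain with it. Of 28 genes tested within 5 Mb of its start, 18 were called under ADP-Hep, where 64.8% of all genes were, and 7 under PBS, against 11.4%. The same way under both were 4 (14.3%), against 943 of 12261 genes (7.69%) over all rows, 0 of 6 within 1 Mb and 6 of 56 (10.7%) within 10 Mb. These 4 were all lower in KO cells. Sec24d, of the vesicle coat, held 137, 138 and 143 CPM in WT and 82.0, 87.4 and 86.0 CPM in KO libraries under ADP-Hep (-0.71 ± 0.05), with -0.39 ± 0.05 under PBS. The kinase gene Camk2d was at -0.66 ± 0.05 and -0.35 ± 0.05, Mcub, a brake of the mitochondrial calcium channel, at -0.59 ± 0.06 and -0.26 ± 0.07, and Ostc, an oligosaccharyltransferase subunit, at -0.51 ± 0.06 and -0.22 ± 0.06. Hadh (0.32 ± 0.06 and -0.19 ± 0.06) and Ank2 (0.83 ± 0.28 and -0.94 ± 0.27) were called in opposite ways, Ank2 losing its call under ADP-Hep without WT replicate 1. Within 1 Mb 5 of the 6 genes were called under ADP-Hep and 1 under PBS. Of these Fam241a was lower (-1.13, adjusted p = 3.2e-11) and Zgrf1 higher (0.62, adjusted p = 3.2e-05) under ADP-Hep. Both were named after their values were seen, and neither was called under PBS (adjusted p = 0.065 and 0.52). Whether sequence linked to the allele bears on any of these was not tested. Of 5 tested genes listed as differing between mouse strains or between C57BL/6 substrains, 2 were higher and 1 lower under ADP-Hep. The last was Cyfip2 (-0.86 ± 0.06, and -0.25 ± 0.06 under PBS). Nlrp1b (1.66 ± 0.17) and Nlrp1a (0.23 ± 0.08) have near-identical neighbours, and Nlrp1a lost its call without WT replicate 2 or KO replicate 3. Of 8 sex-linked genes tested 4 were lower and 2 higher, and with library totals 2 and 3. The Y-linked Kdm5d held 24.2 to 28.0 CPM in WT and 30.9 to 33.6 CPM in KO ADP-Hep libraries (0.26 ± 0.06) and the X-linked Eif2s3x and Kdm5c were lower by 0.38 ± 0.07 and 0.30 ± 0.05. Ddx3x (-0.21 ± 0.06) lost its call with library totals. The X-linked Xist, on the same list, was too low to test. It had 0 counts in each WT ADP-Hep library and 0, 0 and 2 in the KO ADP-Hep libraries.

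The labelled cell type was checked against markers. The 10 macrophage markers summed to 29565 to 30470 CPM in WT and 26742 to 27457 CPM in KO ADP-Hep libraries, with 4 higher and 3 lower in KO cells. Some markers of other lineages were at 0 counts in all 6 libraries and others were not. Of the T cell markers 2 of 7, Cd3e and Cd3g, were at 0, and the list summed to 1.12 to 1.47 CPM in WT and 0.797 to 1.10 CPM in KO libraries, with its 1 tested member lower. The B cell markers, 3 of 7 at 0 and Pax5 among them, summed to 7.69 to 10.6 CPM in WT and 15.0 to 15.4 CPM in KO libraries, with the 1 tested member higher in KO cells. The NK cell markers, 3 of 6 at 0 with Ncr1 and Prf1 among them, summed to at most 0.432 CPM in WT and 0.168 CPM in KO libraries, and the red cell markers, 3 of 6 at 0 with Hbb-bs among them, to at most 0.357 and 0.448 CPM. Fibroblast markers, of which 1 of 8, Lum, was at 0, summed to 1.04 to 1.43 CPM in WT and 0.707 to 1.85 CPM in KO libraries. Neutrophil markers were lower for 7 of 9 tested and higher for 1, with sums of 300 to 319 CPM in WT and 269 to 279 CPM in KO ADP-Hep libraries. Progenitor markers were higher for 2 of 4 tested and lower for 0, with sums of 6.87 to 7.25 CPM in WT and 19.2 to 21.7 CPM in KO libraries, of which Sox4 made up 11.7 to 13.6 CPM in KO libraries. Endothelial markers, 2 of 4 tested higher and 1 lower, summed to 98.1 to 108 CPM in WT and 137 to 157 CPM in KO libraries. The part of these in the results above was not tested. Of 13 mitochondrially encoded mRNAs 7 were tested and edgeR called 0 under ADP-Hep or PBS, with the lowest unadjusted p at 0.130 under ADP-Hep, while limma-voom called 1 lower. The 6 not tested (mt-Co2, mt-Co3, mt-Atp6, mt-Atp8, mt-Nd3 and mt-Nd4l) are listed at 0 in all 12 libraries. For 6 of the 7 tested all KO ADP-Hep libraries lay below all WT ADP-Hep libraries, against 33.7% of all genes. Under PBS this held for 0 of the 7. The median change of the 7 under ADP-Hep was -0.32. The tested member with overlap was mt-Co1. In it KO replicate 1 stood low under ADP-Hep, at 2408 CPM against 4230 and 3586 CPM in the other KO libraries and 3549, 3470 and 3804 CPM in WT. KO PBS replicate 1 stood lower still at 1657 CPM. Leaving out KO replicate 1 left 3664 genes higher and 3609 lower under ADP-Hep, while leaving out KO PBS replicate 1 left 438 higher and 391 lower under PBS.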

How the data were processed

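RNA of 12 libraries of mouse bone-marrow-derived macrophages was sequenced. Libraries came from a stranded mRNA kit, per the labels' protocols. The authors deposited raw read counts, whole numbers in 1 table. The submitters' processing notes name STAR, featureCounts and RSEM for reads, FastQC and Trim Galore for quality, DESeq2, and the builds mm10 and hg38. The counting tool, versions, annotation and strand setting were not given in the sources used here, so genes that overlap, lie antisense or are near-identical may share or split reads.

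Columns were assigned by name, and 1 KO ADP-Hep column, whose number matched no label, was kept in its group without a replicate number. From about row 37642 of 56749 each KO value stood 1 row below its identifier: across genes, WT and KO mean log2 counts had r = 0.996 in the 37542 rows used, 0.042 below the break, and 0.979 there after moving the KO columns up 1 row. With a margin of 100 rows, 19205 gene rows were not used. The rows used held 71.3 to 85.2% of the 16110654 to 31333973 counts per library. Coordinates are from the GENCODE mouse release M21 annotation of mm10, which held all 37542 identifiers. No pair of replicates agreed within sampling noise (chi-square per degree of freedom 1.93 to 10.1).

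In R 4.3.3 with edgeR 4.0.16, counts were scaled by TMM (factors 0.926 to 1.05), filtered by filterByExpr, and fitted with 1 robust quasi-likelihood model of the 4 group means. The biological coefficient of variation was 4.81%. Contrasts were KO minus WT under ADP-Hep, KO minus WT under PBS, and their difference. The SE is the absolute log2 change divided by the square root of F, an approximation. The ADP-Hep comparison was simulated over 12111 genes, with 50 genes given each size of change and the spread taken from its trend over level. The share recovered was 48% for 1.2-fold, 96% for 1.5-fold, 98% for 2-fold and 100% for 4-fold changes. There 3 genes that had not been changed were called. The PBS comparison, simulated over 12118 genes, recovered 42%, 80%, 96% and 100% and called 13 such genes.

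Genes were named by a rule: Alpk1; the 12 largest called decreases and increases (mean of 5 CPM or more in one group, libraries not overlapping, a proper gene name); the 6 largest differences of CPM each way; up to 5 genes with 0 counts in a group; up to 4 called members of smallest p per list and all ALPK1 pathway members; 10 genes with the same and 6 with opposite gaps under both treatments; and genes within 5 Mb of Alpk1 called under both. The gene lists, the rule and the comparison were chosen with earlier results of these data known. Promoter sequences came from a RefSeq table of GRCm38.p6, which matched 9522 of the genes tested (77.7%).

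Alternatives were the Wald test of DESeq2 1.42.0, limma 3.58.1 voom, scaling by DESeq2 size factors or by library totals alone, other filters on low counts, no robust estimation, glmTreat against 1.5-fold, only the groups compared, a replicate block, each library left out, and 2 treatments of the rows not used. Thinning to a common depth was added after seeing the data. Tables and figures were made with Python 3.11.15, pandas 2.3.3, numpy 2.4.6, scipy 1.17.1 and matplotlib 3.10.9. Some items are not reported here.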

Additional observations from a re-analysis of the deposited data

Results flagged for a closer look

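Gaps were called in opposite directions for 132 genes higher in KO under PBS and lower under ADP-Hep, and for 90 the other way. Given here are the 6 named genes with the largest opposite gaps, with edgeR's test of the difference between the 2 gaps. The gap under ADP-Hep minus the gap under PBS, on the log2 scale, was -4.51 for the acute phase gene Saa3 (adjusted p = 9.1e-21), -3.13 for the endothelin receptor Ednrb (adjusted p = 7.4e-17) and -6.80 for the cystine transporter Slc7a11 (adjusted p = 2e-07). It was -2.09 for the complement regulator Cd55 (adjusted p = 1.7e-11), -3.30 for the NAD glycohydrolase Cd38 (adjusted p = 9.9e-17) and 1.78 for the phosphodiesterase Pde1c (adjusted p = 3.4e-10). They were chosen for large opposite gaps called in the same libraries, so this test was set to pass and its adjusted p-values add no support. The sizes describe these genes only.

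The rows of the table left out of the comparison also hold differences. With the KO columns moved up by 1 row there, 982 genes were tested and 325 were called between KO and WT cells under ADP-Hep, 152 higher and 173 lower. Their gene names rest on that move.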

How the results depend on the processing

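In simulated data a 1.2-fold change was recovered for 48% of the 50 genes given it under ADP-Hep. Those genes were drawn above a minimum count, and far fewer genes were changed than were called in the real libraries. Of the 201 named genes, 154 kept direction and call under every alternative that gave them a value. Tested against a 1.5-fold change with glmTreat, 1083 genes were higher and 1121 lower under ADP-Hep, and 15 and 16 under PBS, and 47 named genes lost their call because the change asked for is larger. With library totals as the only scaling 5609 were higher and 2722 lower under ADP-Hep. There Map3k7 changed sign to 0.0032, as did the medians of the iron list (0.0197), the tricarboxylic acid cycle list (0.0880), the cholesterol list (0.0383) and the sex-linked list (0.0156), and Tab2, Traf6, Ikbkb, Tifa and Ddx3x lost their calls; the median of all genes moved with them from 0.01 to 0.17. With all rows as deposited, misaligned ones included, 1632 genes were higher and 1518 lower under PBS. Leaving out 1 library at a time gave 3643 to 3888 genes higher and 3609 to 3844 lower under ADP-Hep, and 438 to 692 higher and 391 to 611 lower under PBS, the lowest without KO PBS replicate 1, which also has the fewest mitochondrial reads; the cause was not tested. The DESeq2 Wald test gave 3548 higher and 3783 lower under ADP-Hep.

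With the replicate number as a block, and the KO library without a number left out, 3681 genes were higher and 3627 lower under ADP-Hep and 633 and 594 under PBS. The labels do not say that numbers pair the samples, and only 2 numbers are shared under ADP-Hep. Between the genotypes there, the deviations of same-numbered libraries had r = 0.155 and 0.199, and those of different numbers -0.243 to 0.166. Across treatments a same-numbered pair, WT PBS and KO ADP-Hep replicate 3, had r = -0.421.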
